A study of Mus musculus with 24 samples.

Results

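The transcripts of 10 genes of the hypoxia response, out of 56941 genes listed, were followed through optically exercised muscle. They were picked by gene name with earlier results from the same libraries in view. They comprise the oxygen-regulated subunits Hif1a and Epas1, the prolyl hydroxylases Egln1 and Egln3, and the target genes Vegfa, P4ha1, P4ha2, Mxi1, Ndrg1, and Ankrd37. All 10 passed the filter on low counts, as did 13315 genes in total. Because the choice rested on levels in these samples, the p values below describe a fit over all 13315 genes and are not independent evidence about the 10.

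The samples were 2D sheets of C2C12, a mouse myoblast line that fuses into contractile myotubes, with genotype ChR2::tdTomato in every group, controls included. ChR2 is a light-gated cation channel, so blue light makes the fibers contract. Sheets were grown on fibrin hydrogels, differentiated for roughly 2 weeks with IGF-1 and horse serum, and either left unstimulated (Control) or stimulated with light daily for 60 min at 1, 4, or 10 Hz, with 6 biological replicates in each group and 24 libraries in all. The study describes spontaneous twitching in all its groups, so Control means without light rather than without contraction. Medium was exchanged daily and not perfused, which raises the question of whether contracting sheets use oxygen faster than it diffuses to them. Oxygen itself was not measured in these data.

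Cells sense oxygen largely through the stability of HIF proteins. With oxygen at hand, prolyl hydroxylases such as Egln1 (PHD2) and Egln3 (PHD3) mark HIF-1α and HIF-2α (the products of Hif1a and Epas1) for VHL-dependent degradation. In low oxygen the proteins persist, pair with Arnt, and bind hypoxia response elements, whose core is ACGTG or GCGTG. The targets include the hydroxylases themselves, which close a feedback loop. Since this control acts mainly on protein, transcript levels of Hif1a and Epas1 do not measure HIF activity, while transcripts of the targets stand closer to it.

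Upstream sequences of P4ha2, P4ha1, Mxi1, Egln3, and Ankrd37, each called at 1 or 4 Hz against Control on at least 1 scale, are shown as examples of hypoxia response element cores, which are in capitals, 5′ to 3′ on the strand of the gene. They come from RefSeq windows of 300 bases (250 before and 50 after a start site, listed on GRCm38.p6). The 250 bases before each start site were found at 1 place in GRCm39. Only the chromosome and strand of the gene were searched, and the stretches shown were cut from that match. All but the P4ha2 stretch are trimmed to bases outside annotated exons. P4ha2 is given at chr11:53991664-53991693 (+), where 30 bases hold 2 cores and other annotated P4ha2 transcripts have an exon. P4ha1 is given at chr10:59158868-59159091 (+), Mxi1 at chr19:53317594-53317839 (+, the second of 3 start sites), Egln3 at chr12:54250674-54250910 (-), and Ankrd37 at chr8:46452912-46453137 (-), all in GRCm39.
P4ha2: catcgcatACGTGcagcGCGTGgcggctcg
P4ha1: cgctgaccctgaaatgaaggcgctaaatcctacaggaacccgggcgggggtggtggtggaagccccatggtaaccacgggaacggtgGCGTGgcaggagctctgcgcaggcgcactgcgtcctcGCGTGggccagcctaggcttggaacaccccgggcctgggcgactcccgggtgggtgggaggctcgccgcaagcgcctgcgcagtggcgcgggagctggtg
Mxi1: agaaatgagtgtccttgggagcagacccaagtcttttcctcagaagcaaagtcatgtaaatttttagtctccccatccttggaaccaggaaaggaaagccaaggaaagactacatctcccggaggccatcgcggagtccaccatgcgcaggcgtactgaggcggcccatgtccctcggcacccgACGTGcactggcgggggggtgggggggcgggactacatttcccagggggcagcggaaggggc
Egln3: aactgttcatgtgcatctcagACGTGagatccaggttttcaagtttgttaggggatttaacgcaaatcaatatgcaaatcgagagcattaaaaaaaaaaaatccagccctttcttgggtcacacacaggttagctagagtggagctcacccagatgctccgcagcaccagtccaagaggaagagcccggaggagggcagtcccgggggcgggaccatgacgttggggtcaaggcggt
Ankrd37: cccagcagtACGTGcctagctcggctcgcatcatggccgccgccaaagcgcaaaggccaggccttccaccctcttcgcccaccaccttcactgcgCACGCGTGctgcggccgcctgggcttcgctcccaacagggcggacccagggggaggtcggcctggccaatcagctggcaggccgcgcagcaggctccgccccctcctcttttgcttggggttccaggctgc

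Of the 10 genes, 8 had a RefSeq window, and Epas1 and Ndrg1 had none. ACGTG or GCGTG, searched on both strands with overlapping matches counted separately, lay in at least 1 window of all 8. Among all 32851 windows 43.8% held a match, and among the 27025 genes 46.7% had a match in at least 1 window. GC content ran from 54.7% to 86.0% in the windows of the 8 genes, and 63.4% of all windows in that range held a match. Ankrd37 and P4ha2 had 4 matches each in the full window, P4ha1 and Hif1a 3, Egln1 2, and Egln3 1. In Hif1a, 2 of the 3 are the same palindrome read on both strands. The first Vegfa window and the first Mxi1 window had none, while the second Vegfa window had 2. A match is a string of letters and not evidence of binding.

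RNA was sequenced from poly(A) libraries, with low-input samples ribodepleted instead (which ones is not given). Depth ran from 8052369 to 18159144 estimated counts per library. Levels are given as CPM, in which counts are divided by a library size scaled by TMM so that the bulk of genes stays level. TPM, in which counts are divided by transcript length and scaled to the same total in every library, is used to compare genes. A gene rose or fell if its Benjamini-Hochberg adjusted p in edgeR's quasi-likelihood test was under 0.05, and changed if its log2(fold change) also exceeded 0.5 in size.

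A group of 4 libraries stood apart, namely 1 Hz replicates 4 and 6 and 4 Hz replicates 3 and 6. Mitochondrial transcripts made up 3.97% to 8.90% of their counts, against 0.545% to 2.72% in the other 20. Calls for the 10 genes that turn on these 4 are given with and without them. On the TPM scale (limma on log2(TPM + 1), 13422 genes) the median gene stood at -0.14 at 1 Hz and -0.21 at 4 Hz against Control, while on the CPM scale it stood at 0.04 and 0.06. At 1 Hz 19.2% of genes rose and 18.1% fell on the CPM scale, against 3.58% and 21.9% on the TPM scale. At 4 Hz these shares were 27.5% and 23.9% on the CPM scale, against 5.83% and 35.9% on the TPM scale. The direction of small changes therefore depends on the scale, and TPM-scale values are given beside each gene.

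The tissue label was checked against marker genes. The summed TPM of 10 myotube genes had a median of 13797 in Control against 12736, 12928, and 12259 under 1, 4, and 10 Hz light. The sum of 7 markers of cycling or undifferentiated myoblasts stayed between 32.3 and 66.1 TPM in all 24 libraries. The 5 endothelial markers summed to at most 0.961 TPM and the 4 fat cell markers to at most 1.04 TPM. The 4 macrophage markers summed to between 55.1 and 102.3 TPM, nearly all of it Cd68, a lysosomal gene that other cells also express.

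In unstimulated sheets the 10 transcripts spanned a wide range per transcript length. Ndrg1, a stress-responsive gene of differentiated cells, was the most abundant at 1544 ± 127 TPM (SD, n = 6), rank 113 of 56941 genes. P4ha1 followed at 442 ± 21.99 TPM, Vegfa at 391 ± 67.4 TPM, and Egln3 at 290 ± 65.5 TPM. The ranges of neighbours overlapped for P4ha1 and Vegfa and for Vegfa and Egln3. P4ha2 stood at 173 ± 9.95 TPM, Egln1 at 128 ± 7.96 TPM, and Mxi1 at 61.7 ± 5.13 TPM, with ranges that did not overlap. Hif1a at 52.8 ± 3.55 TPM and Ankrd37 at 51.7 ± 18.6 TPM overlapped. Epas1 was close to absent at 0.984 ± 0.770 TPM, rank 12878. Its mean rests partly on Control replicate 4, at 2.53 TPM, whose Epas1 CPM of 2.30 was like that of the other controls.

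Against those levels, the clearest differences lay in target genes with 1 and 4 Hz light. P4ha2, Mxi1, and Ndrg1 rose by 0.37 to 0.55 in log2(fold change) on the CPM scale, with all 6 libraries of each group above every control, while on the TPM scale they stood at 0.10 to 0.21 and did not pass. Egln3 fell with 1 Hz light on both scales. Ankrd37 passed as lower only on the TPM scale when all libraries were tested with edgeR and limma. With 10 Hz light 0 of the 10 passed on either scale.

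**Figure D1:**
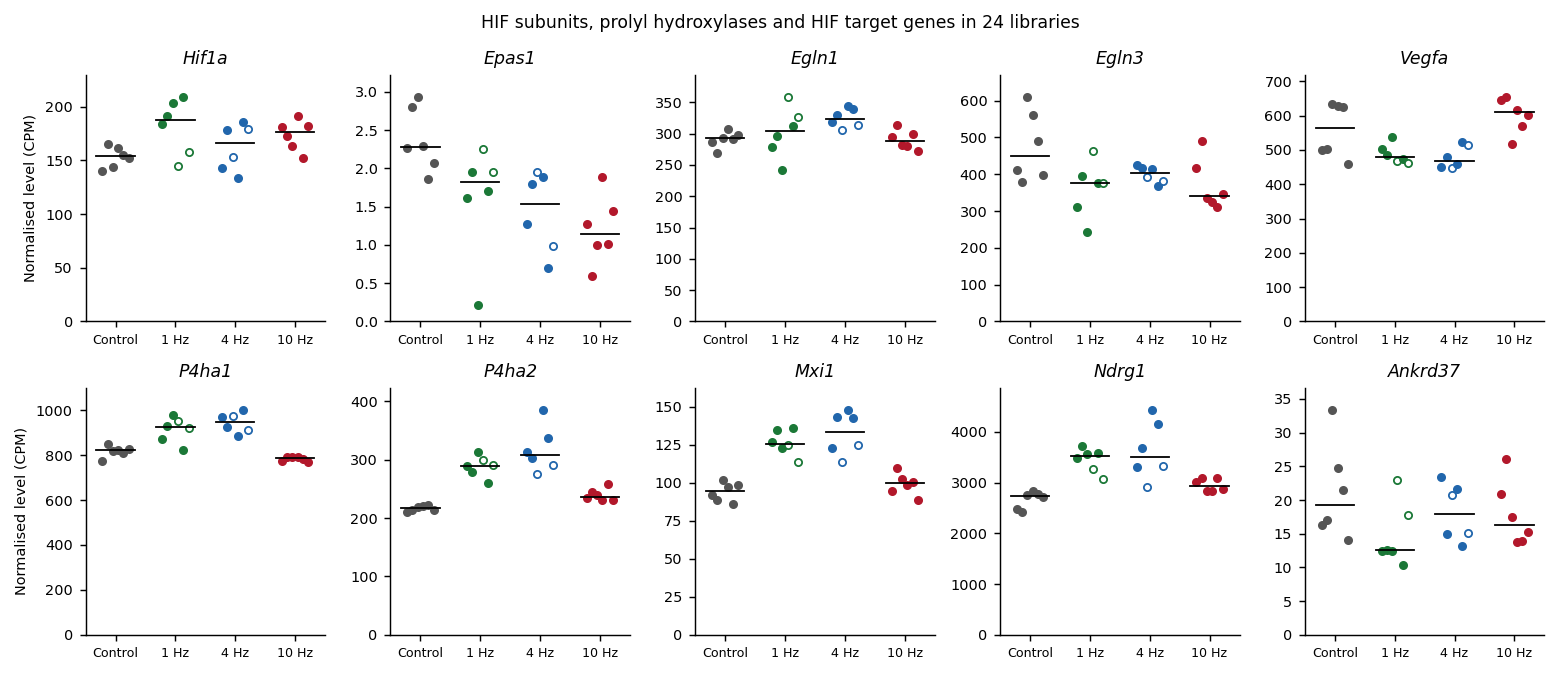
Normalised level (CPM, linear axis from 0) of the 10 genes in each of 24 libraries by stimulation group; each point is a library, the bar is the group median, and open points are the 4 libraries with over 3% mitochondrial counts. P4ha2, Mxi1, and Ndrg1 lie above every control in all 6 libraries at 1 Hz and at 4 Hz, whereas Egln3 and Ankrd37 lie lower on average in every stimulated group.

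Hif1a (ENSMUSG00000021109, chr12:73948149-73996321, + strand in GRCm39) encodes the HIF subunit found in nearly all cells. Its lowest, median, and highest CPM were 139.7, 154, and 165 in Control, 145, 187, and 209 at 1 Hz, 134, 166, and 186 at 4 Hz, and 152, 177, and 191 at 10 Hz. At 1 Hz 4 of 6 libraries exceeded every control, and the others overlapped them. Hif1a rose at 1 Hz on the CPM scale, by 0.25 ± 0.09 in log2(fold change) (SE; edgeR adjusted p = 0.034), while the TPM-scale value was 0.03 (limma adjusted p = 0.93). At 4 Hz the CPM value was 0.08 (adjusted p = 0.45) and the TPM value had the opposite sign, -0.24. At 10 Hz it was 0.18 (adjusted p = 0.62). The lowest 2 libraries at 1 Hz were the mitochondria-rich replicates, and without the 4 such libraries the 1 Hz value was 0.37 (adjusted p = 0.0016). With all libraries kept but 1, the 1 Hz call held in 4 of 12 fits (adjusted p from 0.015 to 0.11). It was lost without Control replicate 1, 3, 4, 5, or 6 or without 1 Hz replicate 2, 3, or 5, at values of 0.20 to 0.25. Of its exon bases, 695 of 8344 are shared with the antisense gene Gm15283. Libraries were made with a directional kit, but the strand setting used in counting is not given. Antisense genes also share exon bases with Egln1 (117 of 8958) and Vegfa (64 of 4299).

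Epas1 (ENSMUSG00000024140, chr17:87061087-87140838, +) encodes HIF-2α, best known from endothelium. Its CPM ran from 1.86 to 2.93 in Control, with a median of 2.28. The lowest, median, and highest CPM were 0.221, 1.82, and 2.26 at 1 Hz, 0.701, 1.53, and 1.95 at 4 Hz, and 0.594, 1.14, and 1.88 at 10 Hz. These values rest on 2 to 48 estimated counts per library. All groups overlapped Control, although 5 of 6 libraries at 10 Hz lay below every control. Epas1 fell at 4 Hz, by 0.74 ± 0.30 in log2(fold change) (adjusted p = 0.040), a call lost without the 4 mitochondria-rich libraries (-0.74, adjusted p = 0.065). Leaving out 1 library ended the call in 6 of 12 fits, those without Control replicate 2, 3, or 4 or 4 Hz replicate 1, 5, or 6 (-0.77 to -0.62, adjusted p up to 0.093). Epas1 stood at -0.52 with 1 Hz light (adjusted p = 0.15) and -0.95 with 10 Hz light (adjusted p = 0.30). It was under the TPM filter. Tested without that filter, it passed as lower on the TPM scale at 4 Hz (-0.53, limma adjusted p = 0.029) but not at 1 Hz (-0.46, adjusted p = 0.094) or 10 Hz (-0.36, adjusted p = 0.92). Control replicate 4 stood at 2.53 TPM, while the other controls lay between 0.538 and 0.872 TPM. The TPM-scale call was not tested without that replicate. In this C2C12 culture the 5 endothelial markers summed to between 0 and 0.961 TPM, and 0 of them passed the filter on low counts. In bulk RNA, fewer cells with Epas1 transcripts and less Epas1 RNA per cell cannot be told apart.

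Of the oxygen sensors, Egln1 (ENSMUSG00000031987, chr8:125635308-125676865, -) is the main HIF prolyl hydroxylase in most cells. Its lowest, median, and highest CPM were 269, 292, and 308 in Control, 242, 304, and 358 at 1 Hz, 306, 324, and 344 at 4 Hz, and 272, 288, and 314 at 10 Hz. Levels at 4 Hz exceeded every control in 5 of 6 libraries. The log2(fold change) was 0.06 with 1 Hz light (adjusted p = 0.56), 0.16 with 4 Hz (adjusted p = 0.060), and -0.0026 with 10 Hz (adjusted p = 0.998). Measured in TPM, Egln1 had the opposite sign at 1 Hz (-0.17) and 4 Hz (-0.17), and it did not pass the test in either. Without the 4 mitochondria-rich libraries the 4 Hz value passed (0.17, adjusted p = 0.034) and the 1 Hz value was -0.03. With upper-quartile scaling it passed at 4 Hz too (0.19, adjusted p = 0.034).

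Egln3 (ENSMUSG00000035105, chr12:54225767-54250673, -) is the paralogue that is strongly hypoxia-inducible and abundant in muscle. Its lowest, median, and highest CPM were 380.1, 450.5, and 610.1 in Control, 243, 377, and 463 at 1 Hz, 368, 403, and 424 at 4 Hz, and 311, 341, and 491 at 10 Hz. At 1 Hz and at 10 Hz 4 of 6 libraries lay below every control, and the rest overlapped. Egln3 fell at 1 Hz by 0.40 ± 0.13 in log2(fold change) (adjusted p = 0.022), and by 0.51 without the 4 mitochondria-rich libraries (adjusted p = 0.015). The 1 Hz call was lost without Control replicate 3, the highest control (-0.31, adjusted p = 0.073), Control replicate 4 (-0.36, 0.053), or 1 Hz replicate 3 (-0.32, 0.051). The values were -0.25 with 4 Hz light (adjusted p = 0.12) and -0.36 with 10 Hz light (adjusted p = 0.46). In TPM, Egln3 passed at both 1 Hz (-0.61, limma adjusted p = 0.0048) and 4 Hz (-0.56, adjusted p = 0.0047), and relative to the median gene it stood at -0.47 and -0.35. The ratio of Egln3 to Egln1 TPM within a library does not depend on library scaling. It ran from 1.84 to 2.87 in Control, 1.39 to 1.84 at 1 Hz, 1.497 to 1.83 at 4 Hz, and 1.43 to 2.16 at 10 Hz.

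Vegfa (ENSMUSG00000023951, chr17:46327919-46343309, -) encodes the secreted factor that draws vessels towards hypoxic tissue. Its lowest, median, and highest CPM were 459, 564, and 634 in Control, 461, 480.2, and 539 at 1 Hz, 448, 469, and 523 at 4 Hz, and 516, 609, and 654 at 10 Hz. Controls split into 3 libraries between 625 and 634 and 3 between 459 and 502, so every stimulated group overlapped them. Vegfa fell at 4 Hz by 0.22 ± 0.08 in log2(fold change) (adjusted p = 0.026), and stood at -0.19 with 1 Hz light (adjusted p = 0.063) and 0.11 with 10 Hz light (adjusted p = 0.83). The 4 Hz call was lost without Control replicate 3 (adjusted p = 0.054), Control replicate 5 (0.051), or 4 Hz replicate 1 (0.057), and a 1 Hz call was gained without Control replicate 1 (0.041), 2 (0.045), or 6 (0.021) or 1 Hz replicate 3 (0.035). In TPM the values were -0.37 at 1 Hz and -0.37 at 4 Hz, without a call (adjusted p = 0.083 and 0.057). It rose at 10 Hz against 1 Hz (0.30, adjusted p = 0.0081) and against 4 Hz (0.33, adjusted p = 0.0021). The call against 1 Hz was lost without the 4 mitochondria-rich libraries (0.25, adjusted p = 0.052) and the call against 4 Hz was kept (0.35, adjusted p = 0.0029). On the TPM scale Vegfa passed in both (0.45, adjusted p = 0.047, and 0.45, adjusted p = 0.024; 15.5% and 33.2% of all genes), and both calls were lost without the TPM filter (adjusted p = 0.12 and 0.064).

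P4ha1 and P4ha2 encode the catalytic subunits of collagen prolyl 4-hydroxylase, which uses oxygen to stabilise the collagen triple helix. For P4ha1 (ENSMUSG00000019916, chr10:59159092-59209126, +) the lowest, median, and highest CPM were 774, 823, and 848 in Control, 822, 927, and 979.6 at 1 Hz, 886, 948, and 1000.1 at 4 Hz, and 768, 787, and 794 at 10 Hz. All 6 libraries at 4 Hz lay above every control, and 5 of 6 did at 1 Hz. P4ha1 rose on the CPM scale at 1 Hz (0.16 ± 0.05, adjusted p = 0.022) and 4 Hz (0.21 ± 0.05, adjusted p = 0.0023), but on the TPM scale the values had the opposite sign, -0.05 and -0.11, with no call. The 1 Hz call was lost without Control replicate 1 or 4 or 1 Hz replicate 3, 4, or 6 (0.12 to 0.14, adjusted p up to 0.084), and both calls were lost with no filter on low counts (adjusted p = 0.27 and 0.094). At 10 Hz P4ha1 stood at -0.06 (adjusted p = 0.87).

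For P4ha2 (ENSMUSG00000018906, chr11:53981553-54022494, +), CPM in Control lay within a narrow range of 210.7 to 221.9, with a median of 216.6. The lowest, median, and highest were 260.5, 289.8, and 313 at 1 Hz, 275, 308, and 385 at 4 Hz, and 230.2, 236, and 259 at 10 Hz. All 6 libraries of each stimulated group exceeded every control, and the 10 Hz libraries lay below all at 1 Hz and 4 Hz. P4ha2 rose by 0.41 ± 0.07 with 1 Hz light (adjusted p = 3.5e-05) and changed by 0.55 ± 0.07 with 4 Hz light (adjusted p = 4.0e-07), and stood at 0.14 at 10 Hz (adjusted p = 0.58; unadjusted p = 0.039). The call was not made on the TPM scale at 1 Hz (0.19, adjusted p = 0.19) or 4 Hz (0.21, adjusted p = 0.12), where it stood 0.33 and 0.41 above the median gene. Without the 4 mitochondria-rich libraries the CPM-scale values were 0.41 and 0.60, and without 4 Hz replicate 4, the highest, the 4 Hz value was 0.46. The ratio of P4ha2 to P4ha1 TPM, again free of library scaling, ran from 0.376 to 0.415 in Control, 0.443 to 0.481 at 1 Hz, 0.405 to 0.622 at 4 Hz, and 0.424 to 0.476 at 10 Hz. At 1 Hz and 10 Hz it exceeded every control in all 6 libraries.

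**Figure D2:**
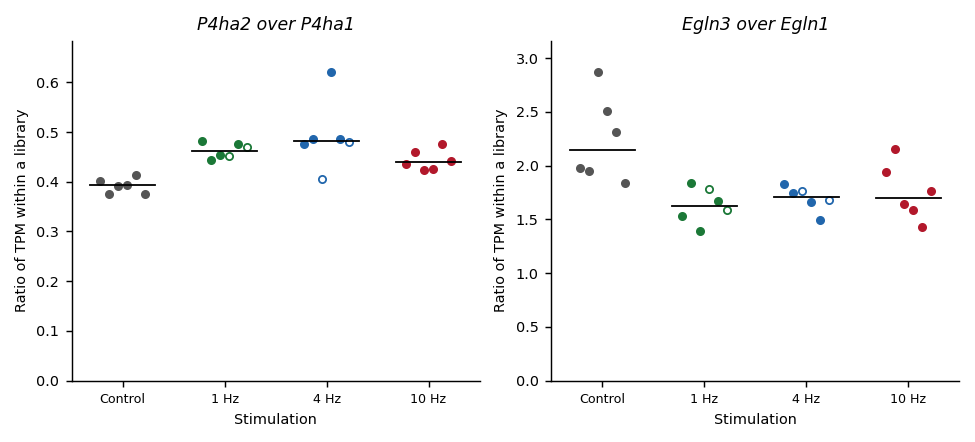
Ratio of TPM within each library for P4ha2 over P4ha1 (left) and Egln3 over Egln1 (right), on linear axes from 0, by stimulation; each point is a library, the bar is the group median, and open points are the 4 libraries with over 3% mitochondrial counts. The P4ha2 ratio averaged 0.392 in Control against 0.463, 0.492, and 0.444 at 1, 4, and 10 Hz, and the Egln3 ratio 2.24 against 1.63, 1.70, and 1.75.

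Mxi1 (ENSMUSG00000025025, chr19:53298852-53364241, +) encodes a repressor that competes with Myc for Max. Its lowest, median, and highest CPM were 86.0, 94.6, and 101.9 in Control, 114, 126, and 136 at 1 Hz, 113, 134, and 148 at 4 Hz, and 88.8, 99.6, and 110.0 at 10 Hz. All 6 libraries at 1 Hz and at 4 Hz exceeded every control, and all 6 at 10 Hz lay below every library at 1 Hz and 4 Hz. Mxi1 rose by 0.43 ± 0.07 with 1 Hz light (adjusted p = 4.5e-05) and by 0.50 ± 0.07 with 4 Hz light (adjusted p = 3.6e-06), and stood at 0.08 at 10 Hz (adjusted p = 0.88). In TPM the values were 0.20 (adjusted p = 0.25) and 0.14 (adjusted p = 0.40), or 0.34 and 0.35 above the median gene. Without the 4 mitochondria-rich libraries the CPM-scale 4 Hz value was 0.55. Of its exon bases, 349 of 7250 are shared with the antisense gene Gm30541, with the same uncertainty about strand as for Hif1a.

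Ndrg1 (ENSMUSG00000005125, chr15:66801166-66841835, -), a target of HIF and of other stress pathways, had a lowest, median, and highest CPM of 2415, 2737, and 2844 in Control and 3067, 3528, and 3720.0 at 1 Hz. At 4 Hz they were 2922, 3514, and 4428, and at 10 Hz 2839, 2937, and 3098. All 6 libraries at 1 Hz and at 4 Hz exceeded every control, and 5 of 6 did at 10 Hz. Ndrg1 rose by 0.37 ± 0.08 with 1 Hz light (adjusted p = 9.3e-04) and by 0.45 ± 0.08 with 4 Hz light (adjusted p = 7.3e-05), and stood at 0.15 at 10 Hz (adjusted p = 0.67). The TPM-scale values were 0.14 (adjusted p = 0.49) and 0.10 (adjusted p = 0.59), or 0.28 and 0.31 above the median gene. Without the 4 mitochondria-rich libraries the CPM-scale values were 0.44 and 0.53. Of its 7477 exon bases, Ndrg1 shares 419 with the antisense gene Gm17035 and 640 with the antisense gene Gm2895. Its counts carry the same uncertainty about strand as those of Hif1a.

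Ankrd37 (ENSMUSG00000050914, chr8:46449939-46458744, -) encodes a small ankyrin repeat protein and is a known HIF-1 target. Its lowest, median, and highest CPM were 14.1, 19.3, and 33.3 in Control, 10.3, 12.6, and 23.0 at 1 Hz, 13.2, 17.9, and 23.4 at 4 Hz, and 13.7, 16.3, and 26.0 at 10 Hz. At 1 Hz 4 of 6 libraries lay below every control, and the 2 that did not were the mitochondria-rich ones. The log2(fold change) at 1 Hz was -0.50 ± 0.22 (adjusted p = 0.070) with all libraries and -0.82 without those 4 (adjusted p = 0.012), and it also passed without Control replicate 6 (-0.59, adjusted p = 0.037), without 1 Hz replicate 4 (-0.71, adjusted p = 0.015), and in DESeq2 (-0.53, adjusted p = 0.038). The value was -0.23 with 4 Hz light (adjusted p = 0.40) and -0.24 with 10 Hz light (adjusted p = 0.87). With TPM, Ankrd37 passed at 1 Hz (-0.76, adjusted p = 0.0036) and 4 Hz (-0.63, adjusted p = 0.0075). It shares 1156 of its 1874 exon bases with Ufsp2 and 369 with Lrp2bp on the opposite strand, so its counts are uncertain if the counting ignored strand.

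**Figure D3:**
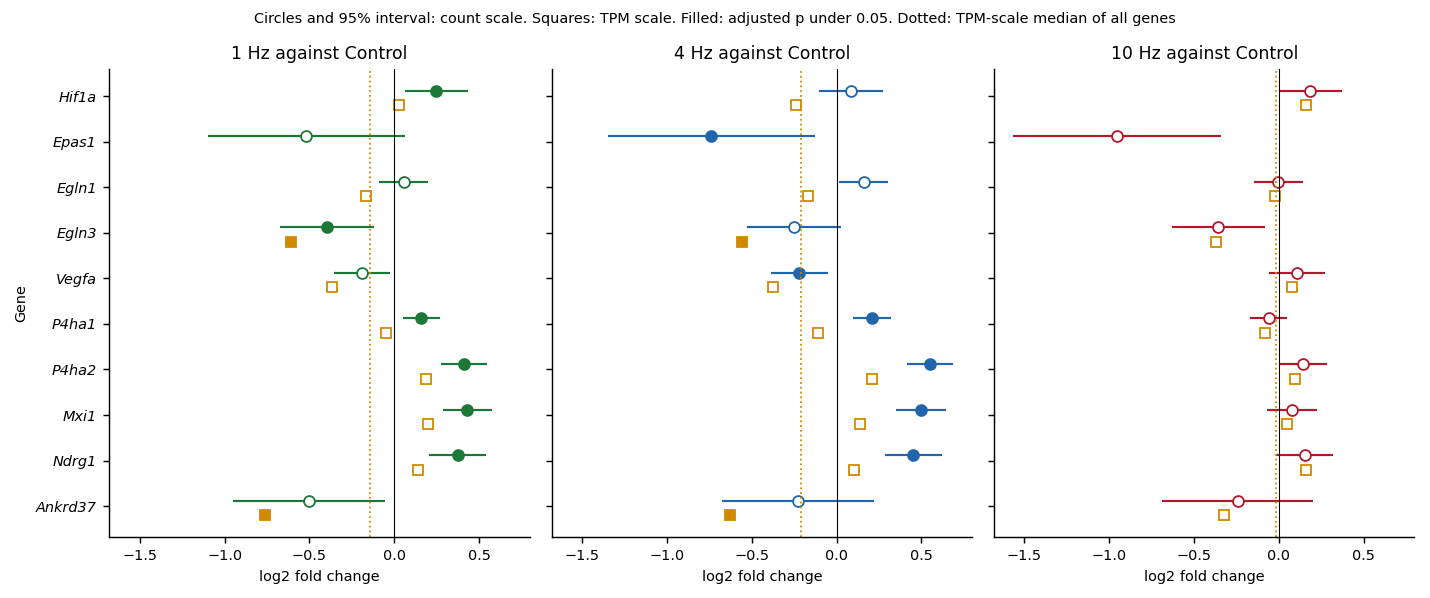
log2(fold change) against Control at 1, 4, and 10 Hz for the 10 genes: circles with 95% intervals are the count (CPM) scale, squares the TPM scale, filled symbols have an adjusted p under 0.05, and the dotted line is the median of all genes on the TPM scale. P4ha2, Mxi1, and Ndrg1 are called higher only on the CPM scale, where they stand between 0.37 and 0.55, and Egln3 and Ankrd37 are lowest on the TPM scale, between -0.76 and -0.56 at 1 and 4 Hz.

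Counted together, 5 of 10 genes rose and 1 fell at 1 Hz on the CPM scale, beside 19.2% and 18.1% of all genes, and 0 passed the threshold on fold change (14.9% of all genes). At 4 Hz 4 rose and 2 fell, beside 27.5% and 23.9%, and 2 changed, P4ha2 upwards and Epas1 downwards (25.1%). At 10 Hz 0 passed in edgeR and 0 in DESeq2, beside 0.015% of all genes higher, 0.0225% lower, and 0.0376% changed in edgeR. An unadjusted edgeR p under 0.05 was seen for 3 of the 10, beside 1074 of all 13315 genes. With TPM, 0 rose and 2 of 9 (22.2%) fell at 1 Hz and at 4 Hz. Of all genes 3.58% rose and 21.9% fell at 1 Hz on that scale, and 5.83% and 35.9% at 4 Hz. At 10 Hz 0 passed, as for all genes (0%). Without the TPM filter 3 of 10 fell at 4 Hz, Epas1 among them. All 3 also passed the threshold on fold change, as did 12% of all genes in that fit. All 6 libraries exceeded every control for 3 genes with 1 Hz light, 4 with 4 Hz, and 1 with 10 Hz, beside 5.55%, 12.9%, and 0.774% of all genes. All 6 lay below every control for 0 genes in each comparison, beside 8.58%, 14.7%, and 0.864%. Because these contrasts informed the choice of the 10, nothing is read from the counts.

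The stimulated groups were also compared with each other. Between 4 Hz and 1 Hz 0 of the 10 passed in edgeR (0% of all genes) and 0 in DESeq2. An unadjusted edgeR p under 0.05 was seen for 1 of the 10, beside 1465 of all 13315 genes. Without the 4 mitochondria-rich libraries 1 of the 10 passed, Hif1a, lower at 4 Hz (-0.33, adjusted p = 0.033), 4 had an unadjusted p under 0.05, and 6.81% of all genes were lower, 3.67% higher, and 3.14% changed. Against 1 Hz, the 10 Hz group was higher in 1 gene (14.8% of all genes) and lower in 4 (13.1%), with 0 changed (10.8%). Against 4 Hz it was higher in 1 (21.9%) and lower in 4 (24.4%), with 0 changed (21.2%). The gene that rose was Vegfa, and those that fell in both were P4ha1, P4ha2, Mxi1, and Ndrg1, by 0.22 to 0.42. The Ndrg1 call against 1 Hz was the weakest (-0.22, adjusted p = 0.044). It was lost with the replicate block (adjusted p = 0.051) and in 11 of 12 fits that left out a library, all but that without 1 Hz replicate 6 (adjusted p up to 0.089), and it was kept without the 4 mitochondria-rich libraries (-0.29, adjusted p = 0.0061). With no filter on low counts, Ndrg1 (adjusted p = 0.14) and P4ha1 (adjusted p = 0.065) both lost the call against 1 Hz. Egln1 passed as lower between 10 Hz and 4 Hz without the 4 libraries (-0.18, adjusted p = 0.033) and with upper-quartile scaling (-0.20, adjusted p = 0.033). On the TPM scale Hif1a passed as higher between 10 Hz and 4 Hz (0.40, adjusted p = 0.045; 33.2% of all genes), a call lost without the TPM filter (adjusted p = 0.10). In TPM P4ha1, P4ha2, Mxi1, and Ndrg1 had no call in either comparison, and Ndrg1 in both and P4ha1 between 10 Hz and 4 Hz had the opposite sign. The 3 comparisons with Control share the same 6 control libraries.

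Within groups, where the mean of each group was removed, some of the 10 varied together across the 24 libraries, which share depth and composition effects. Pearson's r of log2 CPM was 0.77 for Mxi1 and Ndrg1 (0.59 without the 4 mitochondria-rich libraries), 0.75 for Egln3 and Ankrd37 (0.71), 0.72 for Egln1 and Egln3 (0.68), and 0.67 for P4ha2 and Ndrg1 (0.62). On log2 CPM over all 24 libraries only these 4 of 45 pairs exceeded 0.5, and the median was 0.13. Without the 4 mitochondria-rich libraries, Egln1 with Mxi1 (0.65), Egln1 with Ndrg1 (0.54), and Vegfa with Ankrd37 (0.52) also did. With log2(TPM + 1) many other pairs exceeded 0.5, among them Hif1a with P4ha1 (0.90) and Hif1a with Vegfa (0.82). The pattern therefore depends on the scale. Hif1a went against Ankrd37 at -0.59 (-0.37 without the 4, and -0.22 with log2(TPM + 1)). Within groups, r with the mitochondrial share was -0.45 for Ndrg1, -0.36 for Mxi1, and -0.30 for P4ha2, and its part in the differences was not tested.

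**Figure D4:**
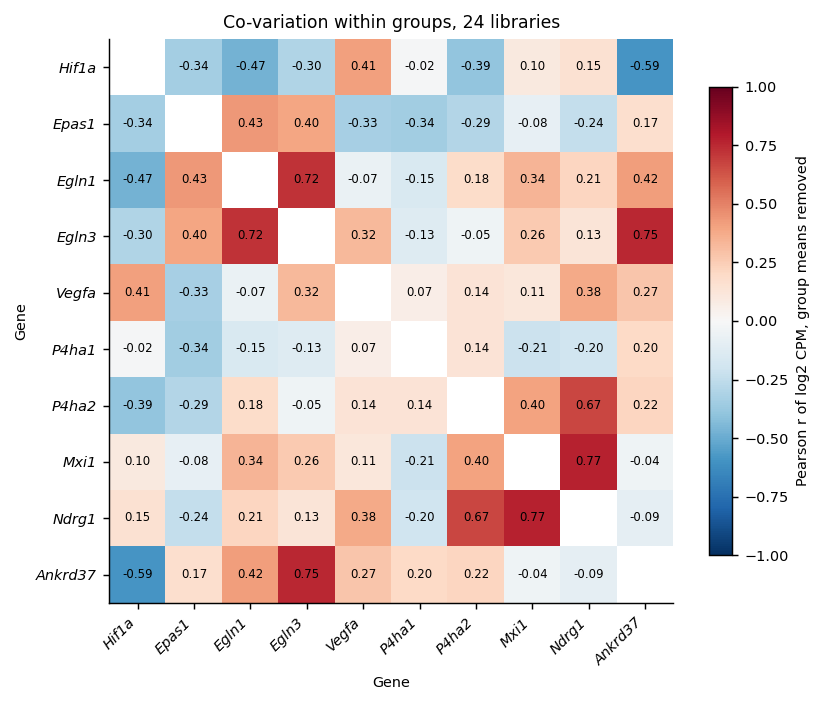
Pearson's r between pairs of the 10 genes over 24 libraries, after removal of group means from log2 CPM, with colour from -1 (blue) to 1 (red). The highest values are 0.77 for Mxi1 and Ndrg1 and 0.75 for Egln3 and Ankrd37, and the Hif1a and Ankrd37 cell is -0.59.

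Over all 4 groups, P4ha2 and Mxi1 had the smallest p of the 10 in an F test, ranks 446 and 587 of 13315 genes. Across the 24 libraries the profile of P4ha2 was most like those of Ephx1 (r = 0.953), Ctsa (0.951), and Slc25a1 (0.949), and that of Mxi1 most like Arfgap3 (0.934) and Zfpl1 (0.926). These r values include the group differences and describe likeness of profile only.

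The wider pathway was read from a list of 78 other HIF-related genes in 7 roles, written with earlier results known, of which 73 were tested. On the CPM scale 21 rose and 9 fell at 1 Hz, beside 19.2% and 18.1% of all genes, and 9 changed, or 12.3% beside 14.9%. At 4 Hz 36 rose and 13 fell, beside 27.5% and 23.9%, and 15 changed, or 20.5% beside 25.1%. At 1 Hz the order turned with upper-quartile factors (16.4% beside 15% of all genes). It also turned without the 4 mitochondria-rich libraries (13.7% beside 12.1%), so nothing is read from these shares. At 10 Hz 0 passed in edgeR, and 0 changed in DESeq2. An unadjusted edgeR p under 0.05 was seen for 7 of the 73, beside 1074 of all 13315 genes. The list median was 0.13 in log2 terms under 1 Hz, 0.23 under 4 Hz, and 0.04 under 10 Hz light, where the median of all tested genes was 0.04, 0.06, and 0.01. On the TPM scale the split turned, with 4 of 72 higher and 14 lower at 1 Hz (3.58% and 21.9% of all genes), and 8 higher and 23 lower at 4 Hz (5.83% and 35.9%). Relative to the median gene, the list's median there was 0.05 at 1 Hz and 0.11 at 4 Hz.

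The counts by role are on the CPM scale unless stated. On that scale 19.2% of all genes rose and 18.1% fell at 1 Hz, and 27.5% rose and 23.9% fell at 4 Hz. Among 14 tested sensing genes and HIF subunits, 7 (50.0%) rose and 4 (28.6%) fell at 4 Hz, the latter near the 23.9% of all genes. Cited2, which competes with HIF for the coactivators p300 and CBP, moved most. Its CPM ran from 70.1 to 99.6 in Control, 184 to 236 at 1 Hz, 189 to 277 at 4 Hz, and 73.9 to 105 at 10 Hz. Cited2 changed by 1.31 with 1 Hz light (adjusted p = 5.1e-10) and 1.42 with 4 Hz light (adjusted p = 9.1e-11), with 1.09 and 1.08 on the TPM scale, and stood at 0.08 at 10 Hz. Hif1an, the asparagine hydroxylase FIH that blocks HIF from its coactivators, fell by 0.38 with 1 Hz light (adjusted p = 3.6e-04) and by 0.38 with 4 Hz light (adjusted p = 2.2e-04), with every library below every control and TPM-scale values of -0.57 and -0.68.

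Of 20 glycolysis and glucose genes, 12 (60.0%) rose and 1 fell at 4 Hz, beside 27.5% and 23.9% of all genes. At 1 Hz 4 rose and 1 fell, and the 20.0% that rose was near the 19.2% of all genes. This likeness was lost without the 4 mitochondria-rich libraries, where 7 (35%) rose and 2 fell at 1 Hz, beside 16% and 14.8%. At 4 Hz 14 (70%) then rose and 1 fell, beside 26.9% and 25.7%. On the TPM scale the split at 4 Hz turned, with 1 (5%) higher and 5 (25%) lower, beside 5.83% and 35.9% of all genes. Slc2a3, the glucose transporter GLUT3, changed by 0.92 with 1 Hz light (adjusted p = 6.6e-06) and 1.16 with 4 Hz light (adjusted p = 1.4e-07), from a low level of 4.89 to 5.77 CPM in Control to 8.29 to 14.6 CPM at 4 Hz. It passed on the TPM scale too, at 0.53 and 0.61. Pfkp, the platelet-type phosphofructokinase, rose by 0.37 at 4 Hz (adjusted p = 7.0e-05) but stood at 0.05 on the TPM scale (adjusted p = 0.77).

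Of 6 genes of mitochondria and mitophagy, 5 (83.3%) rose and 0 fell at 4 Hz, and 3 (50.0%) rose and 0 fell at 1 Hz. Leaving out the 4 mitochondria-rich libraries, 4 (66.7%) rose at 4 Hz and 1 (16.7%) at 1 Hz, beside 26.9% and 16.0% of all genes. The share at 1 Hz was then near that of all genes. The mitophagy receptors Bnip3l (0.49, adjusted p = 2.5e-05) and Bnip3 (0.61, adjusted p = 0.0016) both rose at 4 Hz, and both passed on the TPM scale (0.20, adjusted p = 0.033, and 0.30, adjusted p = 0.0038). Bnip3 CPM ran from 700.4 to 814 in Control and 899 to 1703 at 4 Hz, without overlap. With those libraries left out Bnip3 stood at 0.40 at 4 Hz (adjusted p = 5.9e-04), under the threshold on fold change, and its 1 Hz call (0.47, adjusted p = 0.015) was lost (0.19, adjusted p = 0.10).

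Of 13 secreted and vascular genes, 2 (15.4%) rose and 5 (38.5%) fell at 4 Hz, beside 27.5% and 23.9% of all genes. At 1 Hz 1 (7.69%) rose and 4 (30.8%) fell, beside 19.2% and 18.1%. Hmox1, the heme-degrading enzyme that also answers oxidative stress, fell by 0.86 with 1 Hz light (adjusted p = 2.4e-06) and by 0.94 with 4 Hz light (adjusted p = 3.7e-07), from 975 to 1167 CPM in Control to 484 to 640.2 CPM at 4 Hz, and it stood at -1.10 and -1.27 on the TPM scale. Nos2, the inducible nitric oxide synthase, changed by 0.55 with 1 Hz light (adjusted p = 3.3e-04) and 0.81 with 4 Hz light (adjusted p = 1.7e-06), with TPM-scale values of 0.32 (adjusted p = 0.18) and 0.47 (adjusted p = 0.030).

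In collagen processing, the role of P4ha1 and P4ha2, 4 of 7 other genes (57.1%) rose and 0 fell at 4 Hz. At 1 Hz 3 (42.9%) rose and 0 fell. P4hb, the partner subunit of both enzymes, rose by 0.37 with 1 Hz light (adjusted p = 2.2e-04) and 0.44 with 4 Hz light (adjusted p = 1.6e-05), and Ero1a, the oxidase of disulfide formation, rose by 0.37 and 0.35 (adjusted p = 0.0021 and 0.0019). For P4hb the TPM-scale value at 4 Hz was 0.20 (adjusted p = 0.021), and for Ero1a 0.14 (adjusted p = 0.24).

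Transcription and feedback genes were mixed, with 4 of 10 higher and 3 lower at 4 Hz (3 and 3 at 1 Hz). Rora, a nuclear receptor, changed by 0.91 with 1 Hz light (adjusted p = 3.5e-07) and 0.87 with 4 Hz light (adjusted p = 3.5e-07), though it passed on the TPM scale only at 1 Hz (0.43, adjusted p = 0.027; 0.35, adjusted p = 0.052 at 4 Hz). Kdm4b, an oxygen-using histone demethylase, changed by 0.63 at 4 Hz (adjusted p = 4.7e-06), with 0.30 on the TPM scale (adjusted p = 0.074). Of 3 tested pH and iron genes 2 (66.7%) rose at 4 Hz, beside 27.5% of all genes. They were the carbonic anhydrases Car9 (0.43, adjusted p = 3.8e-05) and Car12 (0.37, adjusted p = 0.0017). On the TPM scale these stood at 0.12 and 0.04 without a call. At 10 Hz 0 genes of any role passed.

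**Figure D5:**
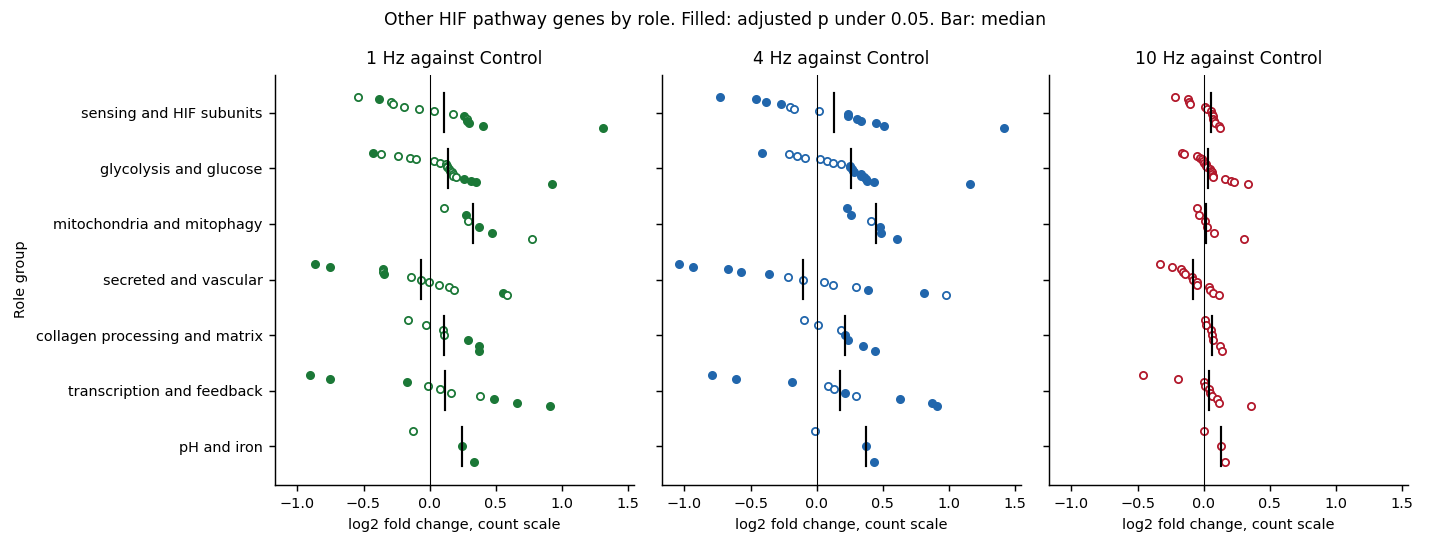
log2(fold change) on the count (CPM) scale for the 73 tested pathway genes by role at 1, 4, and 10 Hz against Control; each point is a gene, filled points have an adjusted p under 0.05, and black bars are medians. Filled points lie on both sides at 1 and 4 Hz, up to 1.42 for Cited2 at 4 Hz, and none is filled at 10 Hz.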

How the data were processed

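RNA from 24 sheets was sequenced by the authors, who processed reads with nf-core/rnaseq (STAR, Salmon) on GRCm39. Their methods also name BWA-MEM for mapping to GRCm39 and bedtools for quality metrics. Their processing notes give BWA 0.7.12-r1039 and bedtools 2.25.0, and mm10 and hg19 with no role. The authors deposited estimated counts per gene, not normalized, and TPM, scaled to 1000000 per library. The library kit was directional; the strand setting in counting is not given in the sources used here.

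Estimated counts were rounded and tested in edgeR 4.0.16 (R 4.3.3) by 1 quasi-likelihood fit of 24 libraries (filterByExpr, minimum count 10 and total 15; TMM; robust), with Benjamini-Hochberg adjustment over 13315 genes. The biological coefficient of variation was 14.8%. Depth limits Epas1 most. Log2(TPM + 1) was tested with limma 3.58.1, keeping genes that reached 1 TPM in at least 6 libraries. DESeq2 1.42.0, other scalings, filters, a replicate block, and leaving libraries out were alternatives. Each test was tested on simulated data. Leaving out the 4 mitochondria-rich libraries was added after the data were seen.

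The 10 genes, pathway list, and markers were chosen with earlier results of these data known. Named genes are the 10, the 2 pathway genes per role with the smallest p at 4 Hz, and the 3 most similar genes for P4ha2 and Mxi1, of which 1 is not reported here. Gene positions are from GENCODE M39, where 98.9% of identifiers were found. No within-group pair of libraries agreed within sampling noise.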

Additional observations from a re-analysis of the deposited data

Results flagged for a closer look

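One value lay far from the others of its group. Epas1 in 1 Hz replicate 3 was 0.221 CPM, from 2 estimated counts, while the other 5 libraries at 1 Hz lay between 1.62 and 2.26 CPM. Among the 40 sets of 6 libraries examined (10 genes in 4 groups), 1 was picked out by Dixon's test at the 95% level, where chance alone picks about 1 in 20.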

How the results depend on the processing

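The count of the 10 genes that changed depended on settings at 1 Hz and 4 Hz. Percentages in brackets are the shares of all genes that changed in the same setting. At 1 Hz the count was 0 (14.9%), and 1 with DESeq2 (14.9%). It was 2 with limma on log2(TPM + 1) (14.2%), on log2(TPM + 0.1) (16.3%), or without a TPM filter (5.93%). It was also 2 without the 4 mitochondria-rich libraries (12.1%). At 4 Hz it was 2 (25.1%), and 1 under a strict filter of 50 counts in 6 libraries (24.1%), which does not test Epas1. It was 3 with upper-quartile factors (25.7%), without a TPM filter (12%), or without the 4 libraries (26%). Pathway genes that changed were 9 at 1 Hz and 15 at 4 Hz, or 12.3% and 20.5% of those tested, beside 14.9% and 25.1% of all genes. With upper-quartile factors they were 12 and 17, or 16.4% and 23.3%, beside 15% and 25.7%. Without a threshold on fold change the counts were 6 at 1 Hz (37.3% of all genes) and 6 at 4 Hz (51.4%). They were 5 for 10 Hz against 1 Hz (27.9%) and 5 for 10 Hz against 4 Hz (46.3%). For the 73 other pathway genes they were 30 at 1 Hz and 49 at 4 Hz, beside the same 37.3% and 51.4%. Leaving out each library in turn gave 0 to 2 at 1 Hz (1 without Control replicate 6, 2 without 1 Hz replicate 4), 1 to 3 at 4 Hz (1 without Control replicate 2 or 4 or 4 Hz replicate 4 or 5, 3 without Control replicate 6 or 4 Hz replicate 3), and 0 in the other 4 comparisons. For pathway genes it gave 9 to 11 at 1 Hz, 13 to 19 at 4 Hz, and 0 at 10 Hz. In those fits 12.3% to 18.2% of all genes changed at 1 Hz and 22.5% to 27.2% at 4 Hz.

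Signs turned on the TPM scale for Egln1 at 1 Hz (-0.165; -0.167 at pseudocount 0.1) and 4 Hz (-0.168; -0.169), P4ha1 at 1 Hz (-0.0486; -0.0487) and 4 Hz (-0.110; -0.111), and Hif1a at 4 Hz (-0.242; -0.247), the same with and without the TPM filter. Egln1 at 1 Hz was also -0.0315 without the 4 libraries, and from -0.0207 to 0.0973 on leaving out each library. Egln1 at 10 Hz ran from -0.0242 to 0.0164. The cause was not tested.

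Same-numbered replicates did not deviate together (r from -0.172 to 0.168, with 2 of 18 libraries closest to their own number). With the replicate block the counts of changed genes were 0 at 1 Hz, 2 at 4 Hz, and 0 at 10 Hz, and for pathway genes 10, 14, and 0. Of all genes 14.3%, 24.7%, and 0.0225% changed with the block. Depth limits Epas1, at 2 to 48 counts per library.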
